A study of Mus musculus with 16 samples.

Results

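The livers of mice lacking both cryptochromes (CRYDKO, Cry1-/- Cry2-/-) were compared between dosing with oxaliplatin at circadian time 16 (CT16) and at CT8. The comparison used 8 of the 16 RNA sequencing libraries of the series, the columns of the deposited count table named for CRYDKO at either time, with 4 libraries at each. All 8 came from male mice on the C57BL/6J background, 12 to 16 weeks old, which had been kept for 3 weeks in 12 h of light and 12 h of dark and then in constant darkness, from 3 days before the drug onwards. Oxaliplatin, a platinum compound that crosslinks DNA, was injected into the peritoneum at 12 mg/kg. Per the labels it was given on 3 consecutive days, while the series text also speaks of a single dose. The other 8 libraries came from wild-type (WT) mice dosed at the same times. They entered the choice of genes to test and to name, the scaling, the estimate of the spread and the comparison of genotypes. Every group had received the drug, and no untreated liver was analysed here. CT8 and CT16 are times of dosing; when the livers were taken is not given in the sources used here. Nothing in the labels says that each library is a different animal, and p-values therefore measure only the spread between these libraries, which may be technical.

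The mammalian clock is a feedback loop in which CLOCK and BMAL1 (the product of Arntl) bind E-box sequences and switch on the Per and Cry genes, and the PER and CRY proteins then repress CLOCK and BMAL1. Mice without both cryptochromes lose daily rhythms of behaviour in constant darkness. Many liver genes outside the loop follow it, among them enzymes of drug, bile acid and lipid metabolism, and the sex-dependent liver genes, which are set by the pattern of growth hormone release, are known to depend on it as well. Platinum drugs form adducts that are removed by nucleotide excision repair and crosslink repair, and that can activate p53.

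The 8 CRYDKO libraries held 18083916 to 24967995 reads each. Over all 16 libraries, 14484 of the 40840 genes of the table had enough reads to be tested, and over these 8 alone 13033 had. Albumin alone took 6.28% to 9.63% of the reads of each library. Of 10 muscle and kidney markers, 5 (Ckm, Myh4, Kap, Slc12a1 and Aqp2) were at 0 in all 8. The rest had reads in at least 1 of the 8, and 0 of the 10 had enough reads to be tested. Xist had 0 to 4 reads in each of these male libraries. Cry1 stood at 20.5 to 29.0 CPM (reads of a gene scaled to the size of the library) in the CRYDKO libraries against 5.14 to 15.9 in WT, and Cry2 at 23.1 to 33.3 CPM against 39.9 to 58.9. Reads of both genes were thus counted in the knockouts. Which exons were deleted is not stated in these sources, so whole-gene counts do not check the genotype. Libraries are named below by the running number of their column: 9, 10, 15 and 16 were dosed at CT8 and 11, 12, 13 and 14 at CT16, and per-library values follow that order. Libraries 9 and 14 stood apart from the rest in many genes, and the main values that rest on them are given with and without them.

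No gene differed between the dosing times in CRYDKO liver at an adjusted p under 0.05 (edgeR's quasi-likelihood test, Benjamini-Hochberg adjustment), that is 0 of 14484, or 0%. At an unadjusted p under 0.05 there were 938 genes (6.48%), of which 409 were higher (2.82%) and 529 lower (3.65%) at CT16. The groups did not overlap for 355 genes (2.45%), 170 of them higher (1.17%) and 185 lower (1.28%) at CT16. Under DESeq2's Wald test 14 genes passed (0.0967%), 7 in each direction, and under limma voom 0 did (0%). In edgeR without library 11, 3 genes passed (0.0202%), namely Aqp4, Isyna1 and Sult5a1. With no low count filter 2 passed (0.00793%), Sult5a1 and Tnfaip3, and limma on the deposited normalized values with a pseudocount of 1 called Sult5a1 alone (0.0069%). Leaving out libraries 9 and 14 together, which was tried after the data had been seen, gave 0 calls and 438 genes at an unadjusted p under 0.05. The median standard error (SE) of a log2 difference was 0.206, and for 10124 genes (69.9%) the 95% interval lay within a 2-fold difference either way. For 16 genes the interval lay wholly beyond 2-fold.

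**Figure D1:**
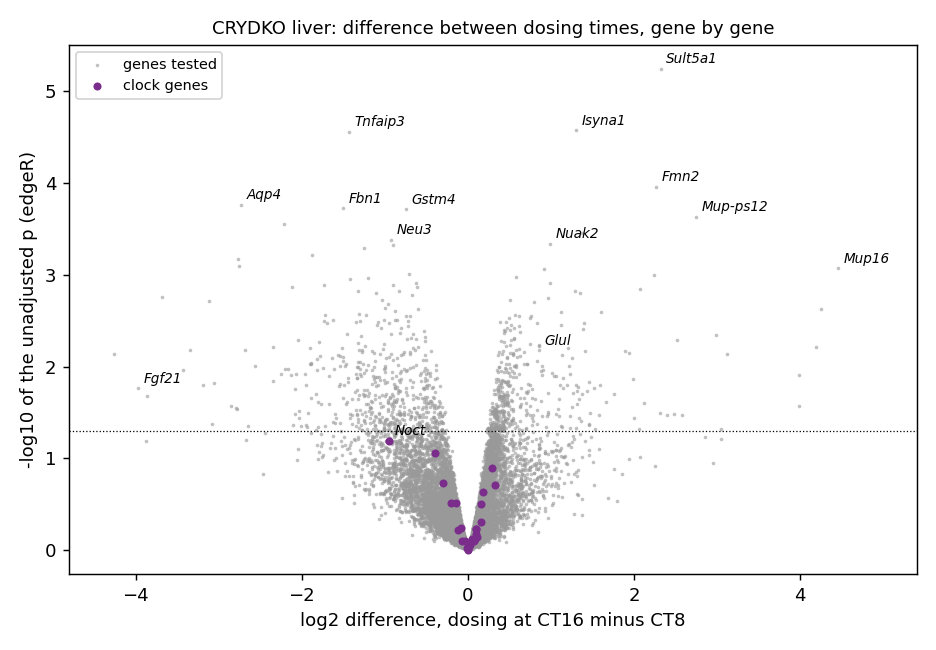
Each point is 1 of the 14484 genes tested, with the log2 difference between dosing at CT16 and CT8 in CRYDKO liver on the x axis and the -log10 of edgeR's unadjusted p on the y axis; the dotted line marks the unadjusted threshold of 0.05 and clock genes are in purple. Sult5a1 has the lowest p, none of the genes passed the adjusted threshold, and the clock genes all lie under the dotted line.

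The genes with the lowest p among those higher at CT16 were of mixed function. Sult5a1, a cytosolic sulfotransferase, had 0.610, 0.494, 0.553 and 0.347 CPM at CT8 and 2.12, 3.05, 2.11 and 2.82 CPM at CT16. The 4 CT16 libraries all lay above the 4 CT8 libraries, a log2 difference of 2.32 ± 0.38 (SE, adjusted p = 0.0827 by edgeR). These levels rest on 7 to 14 reads per library at CT8 and 36 to 69 at CT16. Isyna1, which makes inositol phosphate from glucose phosphate, had 14.4, 14.02, 16.9 and 17.3 CPM at CT8 and 19.9, 53.6, 51.6 and 29.0 at CT16. Its groups did not overlap, although library 11 lay close to the CT8 range (log2 difference 1.30 ± 0.23 SE, adjusted p = 0.134 by edgeR). Without library 11 the difference was 1.51, with an adjusted p of 0.00153 by edgeR. Nuak2, a kinase related to AMPK, averaged 11.8 ± 4.66 CPM (SD, n = 4) at CT8 and 23.4 ± 5.13 at CT16. Fzd7, a receptor for Wnt proteins, averaged 12.8 ± 1.95 CPM at CT8 and 19.2 ± 1.46 at CT16, again with no overlap, for a log2 difference of 0.58 ± 0.15 (SE). Kcnt2, a potassium channel gene, ran from 1.12 to 2.66 CPM at CT8 and from 3.12 to 5.84 at CT16. Prtn3, known as a protease of neutrophil granules, had 8.80, 1.39, 9.90 and 7.29 CPM at CT8 and 9.46, 54.0, 37.2 and 27.9 at CT16, so that library 11 fell within the CT8 range. The 6 neutrophil markers tested all lay below 0, with a median of -0.81, and 0 had an unadjusted p under 0.05. Library 9 had their highest summed level, 13.6 CPM against 2.65 to 8.91 in the other 7, and without it 4 of 6 lay below 0 and the median was -0.53.

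Among genes lower at CT16, Tnfaip3 had the lowest p. It encodes A20, an enzyme that edits ubiquitin chains and limits NF-kB signalling, and is itself switched on by NF-kB. It stood at 10.7, 5.44, 4.48 and 6.30 CPM at CT8 and at 2.29, 2.21, 2.28 and 3.23 CPM at CT16, a log2 difference of -1.43 ± 0.27 (SE, adjusted p = 0.134 by edgeR). The groups did not overlap, and library 9 was the highest of the 8. The 250 bases before its annotated start (RefSeq, GRCm38.p6, chr10:19015411-19015660, minus strand) are shown because this gene gave the lowest p of the NF-kB feedback genes. The window was chosen to hold the motif marked below. Capitals mark a match to a kB-type element, searched on both strands, which starts at position -12 from the start. The element occurs in 4.65% of the 32851 upstream windows of this length. Counted by gene, 6.22% of the genes tested that have a window held it in any of theirs.
Tnfaip3: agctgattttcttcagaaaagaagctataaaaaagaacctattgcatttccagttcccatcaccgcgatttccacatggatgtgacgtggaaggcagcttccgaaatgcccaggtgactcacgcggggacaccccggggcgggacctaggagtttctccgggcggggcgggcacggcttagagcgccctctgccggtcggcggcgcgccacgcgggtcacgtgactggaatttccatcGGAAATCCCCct
The match describes the sequence and was looked for with the result known. Nfkbia, which encodes the inhibitor IkB alpha, had 61.6 to 76.5 CPM at CT8 and 55.3 to 57.6 at CT16, with no overlap (log2 difference -0.31 ± 0.14 SE, adjusted p = 0.753 by edgeR). Of the 31 immediate early and NF-kB feedback genes, 2 were higher and 7 lower at an unadjusted p under 0.05 (2.82% and 3.65% of all genes were), with a median log2 difference of -0.17. Without library 9 these counts were 3 and 1 and the median was 0.13, and without library 14 they were 2 and 3. Relb, a subunit of NF-kB, had 10.9 CPM in library 9 and 1.60 to 4.26 in the other 7, and its log2 difference was -1.35 with library 9 and -0.59 without it.

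Gstm4, a glutathione transferase, had 49.3, 37.6, 32.6 and 30.8 CPM at CT8 and 21.9, 24.7, 22.1 and 20.7 at CT16. All 4 CT16 libraries lay below all 4 CT8 libraries, with a log2 difference of -0.75 ± 0.17 (SE, adjusted p = 0.402 by edgeR). Neu3, a sialidase of the cell membrane that acts on gangliosides, averaged 6.31 ± 0.790 CPM (SD, n = 4) at CT8 and 3.33 ± 0.256 at CT16, and the chemokine gene Ccl9 averaged 78.9 ± 17.7 and 42.2 ± 9.27 CPM. Neither pair of groups overlapped. Fabp2, an intestinal-type fatty acid binding protein, had 112, 26.3, 33.0 and 54.5 CPM at CT8 and 20.6, 25.7, 13.8 and 7.79 at CT16, and Apoa4, an apolipoprotein of lipid transport, had 14158, 1829, 1801 and 3135 CPM against 1309, 1333, 645 and 840. In both the groups did not overlap and library 9 was the highest by more than 2-fold. The log2 difference of Fabp2 was -1.73 with library 9 and -1.16 without it, and that of Apoa4 was -2.34 and -1.13. Fbn1, an extracellular matrix gene, ran from 1.55 to 2.92 CPM at CT8 and 0.461 to 1.08 at CT16. Aqp4, a water channel gene, was at 5.10, 1.53, 0.996 and 1.34 CPM at CT8 and 0.882, 0.133, 0.114 and 0.256 at CT16. Fbn1 and Aqp4 were among the 14 genes called by DESeq2, with adjusted p = 0.00905 and 0.00369, while edgeR gave both an adjusted p of 0.402.

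Clock genes showed no difference that passed a test. Of 26 clock and clock-output genes, 25 had enough reads, 0 had an unadjusted p under 0.05 in edgeR, and 13 lay above and 12 below 0, with a median log2 difference of 0.03 beside 0.00 (0.00187) over all genes. The count of 0 was 2 without library 9 and 1 without library 15, all lower at CT16, and stayed at 0 without any other single library. Arntl, the activator, had 8.63, 5.48, 14.3 and 8.58 CPM at CT8 and 10.8, 8.05, 7.71 and 8.55 at CT16. The spread within CT8 was wider than the step between times, and the 95% interval of the log2 difference ran from -0.66 to 0.51. Clock averaged 19.9 ± 3.38 and 20.5 ± 3.69 CPM (SD, n = 4). Among the repressors, Per1 averaged 142 ± 23.5 CPM at CT8 and 123 ± 26.5 at CT16, Per2 61.3 ± 13.6 and 49.7 ± 12.8, and Per3 52.4 ± 20.8 and 55.7 ± 13.1. Nr1d1, which encodes the Arntl repressor REV-ERB alpha, had 30.8, 24.9, 36.7 and 46.0 CPM at CT8 and 40.7, 51.9, 34.1 and 19.0 at CT16, so that its lowest and highest libraries were both dosed at CT16. Dbp, a transcription factor driven through E-boxes, averaged 84.5 ± 15.3 and 103 ± 21.4 CPM, and its relatives Tef and Hlf had log2 differences of 0.18 ± 0.15 and 0.10 ± 0.19 (SE).

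Ciart, a repressor of CLOCK and BMAL1, had 43.6, 76.1, 52.4 and 60.4 CPM at CT8 and 44.7, 50.9, 39.3 and 42.2 at CT16 (log2 difference -0.39 ± 0.22 SE, adjusted p = 0.790 by edgeR). Its upstream window is shown because it holds 3 E-boxes (RefSeq, GRCm38.p6, chr3:95882229-95882478, minus strand). Capitals mark CACGTG, which reads the same on both strands, at -116, -58 and -44 from the start.
Ciart: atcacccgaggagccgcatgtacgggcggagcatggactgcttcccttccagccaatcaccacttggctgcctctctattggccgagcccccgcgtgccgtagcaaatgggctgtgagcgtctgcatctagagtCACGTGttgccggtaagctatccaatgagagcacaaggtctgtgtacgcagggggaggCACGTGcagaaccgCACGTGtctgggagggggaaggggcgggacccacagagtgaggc
The motif occurs in 6.02% of all 32851 windows. Counted by gene, 9.53% of the genes tested that have a window held it in any of theirs. So did 5 of the 20 clock genes with a window in the RefSeq table. Noct, a phosphatase of the clock output whose RNA cycles strongly in liver, was the 1 clock-list gene of 25 whose groups did not overlap. Over all genes tested 2.45% did not overlap, and 1 gene is too few to set the list apart from that share. Noct had 33.4, 98.5, 36.0 and 55.5 CPM at CT8 and 26.6, 28.3, 30.9 and 29.8 at CT16. The highest CT16 library lay just below the lowest CT8 library, and the log2 difference of -0.95 ± 0.47 (SE) had an adjusted p of 0.783 by edgeR.

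**Figure D2:**
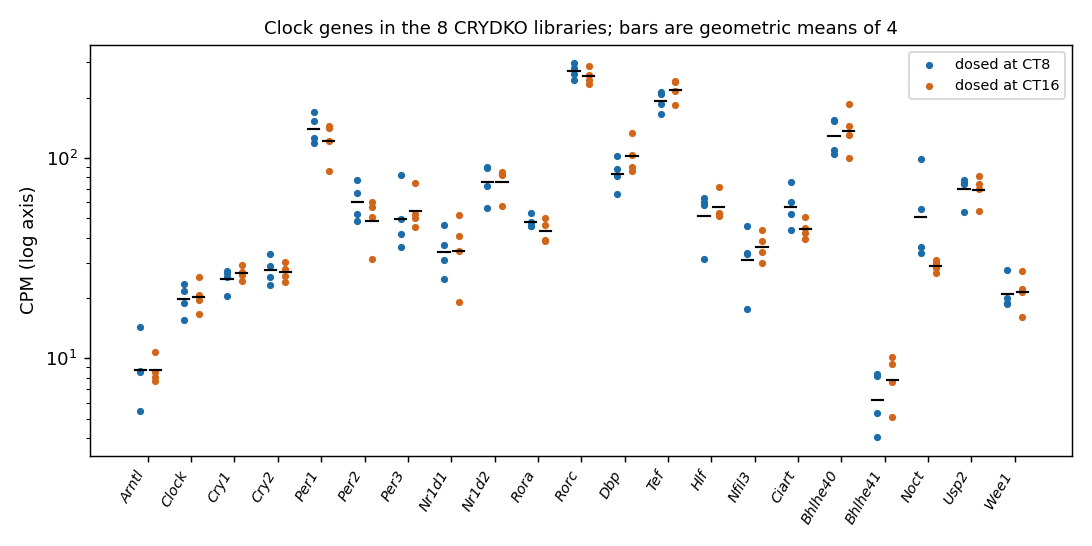
CPM on a log axis for 21 clock genes, with each library as a point (blue, dosed at CT8; orange, dosed at CT16; 4 each) and a bar at the geometric mean. The points of both times overlap in every gene drawn except Noct, which ran from 33.4 to 98.5 CPM at CT8 and from 26.6 to 30.9 at CT16.

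Genes of the response to platinum were compared next. Of 29 p53 targets tested, 3 had an unadjusted p under 0.05, all higher at CT16 (2.82% of all genes were), and 0 passed after adjustment by edgeR. The count of 3 higher and 0 lower was 1 and 1 when library 10 or 13 was left out, 1 and 2 without library 12, and 6 and 1 without library 15. The 3 genes were Bax, which promotes cell death, Sesn1, a stress protein, and Zmat3, an RNA binding protein. Bax had 68.3, 51.1, 83.2 and 63.4 CPM at CT8 and 64.1, 138, 92.7 and 103 at CT16, where library 11 stayed within the CT8 range. Cdkn1a, which encodes the cell cycle inhibitor p21, had 144, 39.9, 127 and 89.9 CPM at CT8 and 40.6, 110, 69.8 and 65.4 at CT16, so that its CT16 values all lay within the CT8 range. In nucleotide excision repair 1 of 30 genes (Xab2) and in crosslink, recombination and translesion repair 2 of 33 (Fance and Fancl, both of the Fanconi core complex) had an unadjusted p under 0.05, all higher. Over all genes tested 6.48% had such a p in either direction, and 2.82% had one and were higher at CT16. Counts of 1 and 2 genes are too small to set these lists apart from either share. The medians of these 2 repair lists were 0.05 and 0.11 on the log2 scale. The median of the p53 list was 0.06, and it changed sign without library 10 (-0.14) or library 12 (-0.14). Among 18 platinum transporters and chaperones, 1 was higher and 3 were lower at CT16 at an unadjusted p under 0.05 (2.82% and 3.65% of all genes were). The lower genes were the efflux pumps Abcb1a and Abcc1 and the copper chaperone Atox1, each with an adjusted p of 0.672 or more by edgeR. Without library 14, 0 of these 18 genes had an unadjusted p under 0.05.

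The glutathione, metallothionein and NRF2 list had 5 of 20 genes with an unadjusted p under 0.05, all lower at CT16 (3.65% of all genes were), with a median log2 difference of -0.11. They were Nqo1 (a quinone reductase), Gclc (the first enzyme of glutathione synthesis), Gsr (glutathione reductase), Gpx4 (a peroxidase for lipid peroxides) and Srxn1 (sulfiredoxin). Gsr had 118 CPM in library 9 and 62.4 to 63.8 in the other 3 CT8 libraries, against 49.6 to 58.4 at CT16. Srxn1 had 390 CPM in library 9, 34.9 to 39.9 in the other CT8 libraries and 29.3 to 42.4 at CT16. Without library 9 the log2 difference of Gsr went from -0.49 to -0.20 and that of Srxn1 from -1.83 to -0.0667. Gpx4, in which library 9 did not stand apart, ran from 288 to 326 CPM at CT8 and from 202 to 270 at CT16. Without library 9 the count was 1 of 20, without library 13 or library 14 it was 3, and without libraries 9 and 14 it was 0 of 20 with a median of -0.03. The glutathione transferase Gsta1 was listed at 11.8, 4.94, 0.830 and 0.248 CPM at CT8 and at 0.205 to 0.588 at CT16, which placed libraries 9 and 10 far above the other 6.

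Genes of the pericentral zone of the liver lobule, next to the central vein, mostly lay higher at CT16. Of 18 tested, 16 lay above 0, 4 had an unadjusted p under 0.05, all higher (2.82% of all genes were), and the median log2 difference was 0.43, beside 0.00 (0.00187) over all genes. Glul, which encodes glutamine synthetase and is confined to the cells around the central vein, had 488, 464, 1039 and 1057 CPM at CT8 and 1239, 1245, 1404 and 1621 at CT16. The groups did not overlap, and libraries 9 and 10 held less than either of the other CT8 libraries (log2 difference 0.85 ± 0.28 SE, adjusted p = 0.671 by edgeR). Cyp2e1, an ethanol and drug oxidising enzyme, was likewise lowest in those libraries, with 3604 and 3858 CPM in libraries 9 and 10, 6321 and 7190 in 15 and 16, and 7086 to 8131 at CT16, where library 16 overlapped the CT16 range. Without libraries 9 and 14, 0 of the 18 genes had an unadjusted p under 0.05 and the median was 0.27. The count of 4 was 2 without library 9 and 11 without library 16. In the periportal list 12 of 14 genes lay below 0, with a median of -0.19, which was -0.05 without library 10 and -0.37 without library 14.

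Of 19 bile acid genes tested, 15 lay above 0 and 5 had an unadjusted p under 0.05, all higher at CT16 (2.82% of all genes were), with a median of 0.28. They were Cyp7a1, the rate-limiting enzyme of bile acid synthesis, Cyp27a1, which starts the alternative route, Nr1h4, the bile acid receptor FXR, and Slc27a5 and Baat, which join bile acids to their conjugates. Cyp7a1 had 75.9, 110, 194 and 130 CPM at CT8 and 195, 160, 257 and 247 at CT16, and the groups overlapped in library 15. With 1 library left out the count of 5 was 0 (library 9), 1 (library 14), 3 (library 13) or 8 (library 15), and without libraries 9 and 14 the median was 0.05. Of the heat shock and cold-inducible list 17 of 20 genes lay below 0 (median -0.21). Hspa8 and Hsp90aa1, both chaperones, had an unadjusted p under 0.05, both lower at CT16 (3.65% of all genes were). Hspa8 had 1490 and 1484 CPM in libraries 9 and 10 and 747 to 885 in the other 6. Without library 10, 12 of 20 genes lay below 0, the median was -0.11 and 0 had an unadjusted p under 0.05, and this last count was also 0 without library 9 or library 14. Without library 11, 2 genes were higher and 0 lower at this p, and without library 15, 2 were higher and 4 lower. Leaving out library 12 or library 13 gave 1 in each direction. Of the fatty acid synthesis list 17 of 22 lay below 0 (median -0.30). In that list, Fads2, a fatty acid desaturase, had 1637 and 815 CPM in libraries 9 and 10 against 290 to 582 in the other 6. Without library 10 the median of the fatty acid synthesis list was 0.21, and 15 of 22 genes lay above 0.

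Major urinary protein (Mup) genes, which code for male pheromone carriers secreted by the liver, gave the largest list median. All 17 tested lay above 0, 8 had an unadjusted p under 0.05 (2.82% of all genes were higher at this p), 0 passed the adjusted threshold in edgeR, and the median log2 difference was 2.25. These values include genes near 0 in CRYDKO. Mup18 was at 0 CPM in all CT8 libraries and at 0.0512 to 0.114 at CT16, and Mup8 at 0 except in libraries 12 (0.0885) and 13 (0.228). The read filter used all 16 libraries, so that WT reads can bring such genes into the test. Mup16 had 0.0436, 0.0449, 0.498 and 0.248 CPM at CT8 and 0.529, 1.59, 6.45 and 9.12 at CT16 (log2 difference 4.46 ± 1.04 SE, adjusted p = 0.632 by edgeR and 0.00369 by DESeq2). Libraries 13 and 14 were highest, and in WT the gene ran from 1.33 to 13.4 CPM. The summed level of the 17 genes was 718, 3977, 4679 and 1504 CPM at CT8 and 1671, 2288, 10300 and 6669 at CT16, so that the sums of both times overlapped. These genes are near-identical copies, and how the reads were split between them in the authors' counting is uncertain. The list median was 1.52 without libraries 9 and 14, 1.37 without library 13 and 4.01 without library 15. The count of 8 was 5 without library 9, 4 without library 13 and 14 without library 15.

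Markers of non-parenchymal cells moved with the libraries. In bulk liver, fewer cells of a type and less RNA per cell cannot be told apart. Of 14 stellate cell and fibroblast markers tested, all lay below 0 and 6 had an unadjusted p under 0.05, all lower at CT16 (3.65% of all genes were), with a median of -0.68. Their summed level was 443, 391.5, 239.7 and 216 CPM at CT8 and 249.1, 284, 212 and 90.2 at CT16, with libraries 9 and 10 at the top and library 14 at the bottom. Col3a1, a fibrillar collagen, had 26.6, 21.9, 8.19 and 14.9 CPM at CT8 and 7.68 to 12.3 at CT16, and Pdgfrb, a receptor of stellate cells, had 0.717 CPM in library 14 against 3.94 to 9.21 in the other 7. Without libraries 9 and 14, 0 of 14 had an unadjusted p under 0.05 and the median was -0.23. The count of 6 was 1 without library 9 and 2 without library 13 or library 14, and 4 without library 10. Of 15 sinusoidal endothelium markers, 14 lay below 0 (median -0.53, 3 lower and 1 higher at an unadjusted p under 0.05, beside 3.65% and 2.82% of all genes), and the median was -0.06 without libraries 9 and 14. The 3 lower genes were 0 without library 9, library 10 or library 14 and 1 without library 12. The scavenger receptor gene Stab2 was the exception, with 16.4 to 22.9 CPM at CT8 and 23.0 to 34.3 at CT16. Macrophage markers lay the other way, with 13 of 14 above 0, a median of 0.31 and 1 gene, Cd163, at an unadjusted p under 0.05 (0 without library 10 or library 13, and 2 without library 9). The median was 0.63 without library 9 and 0.68 without libraries 9 and 14, but 0.16, 0.18 and 0.17 when library 15, 16 or 13 was left out. Cd163, a scavenger receptor for haemoglobin, had 1.53 to 2.75 CPM at CT8 and 3.05 to 8.79 at CT16. The summed macrophage level was 230, 142, 99.7 and 96.3 CPM at CT8 and 172.5, 143, 251 and 171 at CT16. The part of these cell markers in the differences of other genes was not tested.

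**Figure D3:**
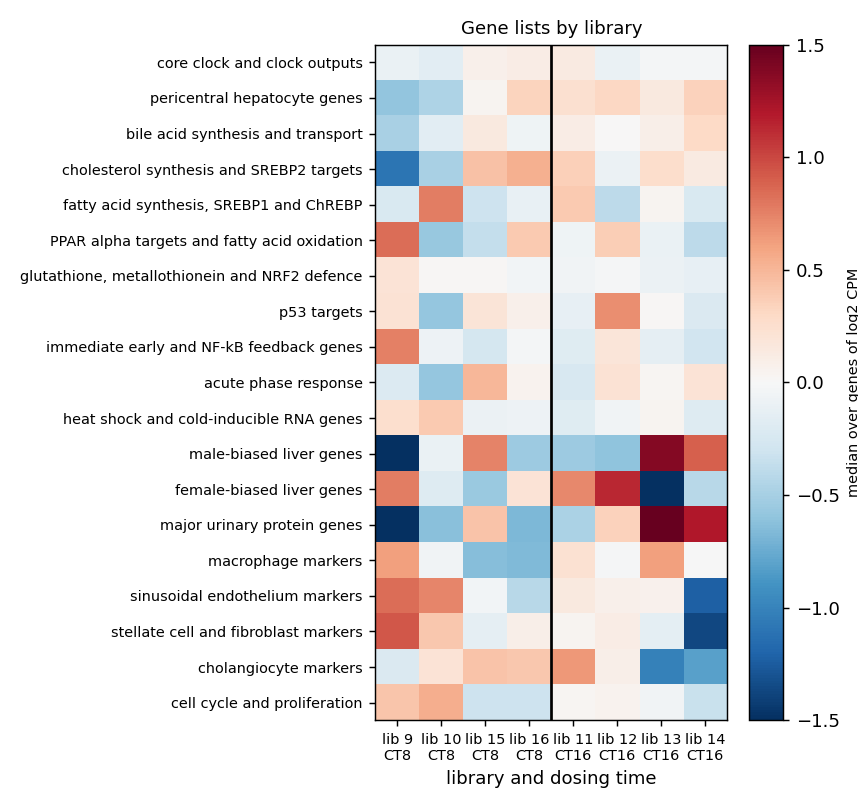
Rows are 19 gene lists, columns the 8 CRYDKO libraries (4 dosed at CT8 left of the line, 4 at CT16 right of it), and the colour is the median over the genes of a list of log2 CPM minus the gene's mean over the 8 libraries. Libraries 9 and 14 lie far apart in the stellate list (0.936 and -1.36) and the endothelium list (0.837 and -1.23), and the male-biased list runs from -1.52 in library 9 to 1.38 in library 13.

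The difference between dosing times was then set against that in WT, as the interaction of genotype and time. It passed an adjusted p under 0.05 in edgeR for 6 of 14484 genes (0.0414%): Ppib, Sult5a1, Tnfaip3, Cyp2j9 and the gene models Gm43549 and LOC118568335. Ppib, a proline isomerase of the endoplasmic reticulum, had 42.0, 56.6, 79.3 and 51.1 CPM at CT8 and 46.3, 46.7, 41.5 and 39.4 at CT16 in CRYDKO. In WT it averaged 24.7 CPM at CT8 and 61.8 at CT16. The CT16 minus CT8 difference was thus -0.40 ± 0.18 (SE) in CRYDKO and 1.32 ± 0.19 in WT on the log2 scale, and their difference of -1.72 ± 0.26 had an adjusted p of 0.0260. Sult5a1 differed by 2.98 ± 0.50 and Tnfaip3 by -2.09 ± 0.37 between the genotypes (adjusted p = 0.0398 for both). In WT, Sult5a1 averaged 5.82 CPM at CT8 and 3.68 at CT16, above all CRYDKO libraries dosed at CT8, and Tnfaip3 averaged 2.24 and 3.55 CPM. Cyp2j9, an oxidase of fatty acids, had 6.01 to 12.2 CPM at CT8 and 12.3 to 17.9 at CT16 in CRYDKO against averages of 27.6 and 11.8 CPM in WT, a difference of 2.05 ± 0.35 (adjusted p = 0.0398). The interaction was called in 6 of 8 fits with 1 CRYDKO library left out for Ppib, 4 of 8 for Sult5a1, 3 of 8 for Tnfaip3 and 2 of 8 for Cyp2j9. With 1 CRYDKO library left out, the count of 6 became 1 for library 9 (0.00673%), 3 for library 10 (0.0203%) and 0 for libraries 12 and 13. It became 8 when library 15 was left out (0.0537%), 9 for library 16 (0.0605%), 7 for library 11 (0.0471%) and 6 for library 14 (0.0405%). It was 4 without libraries 9 and 14 together (0.0271%), and DESeq2 called 134 genes (0.926%).

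Most of the variation among the 8 CRYDKO libraries did not follow dosing time. The times accounted for 16.1% of the summed squares of log2 CPM over all genes, where 1 of 7 degrees of freedom amounts to 14.3%. The median over genes was 8.94%. That median cannot be set against 14.3%, which is an expected mean, because shares of single genes are skewed. The median standard deviation within a time was 0.313 in CRYDKO and 0.269 in WT on the log2 scale. Of the 10708 genes that averaged 1 or more on the log2 CPM scale in CRYDKO, 134 had a within-time SD of at least 1, and 52 of these had a within-time SD under 0.5 in WT. No pair of libraries within a time looked like 1 library deposited again, since chi-square divided by its degrees of freedom was 64.4 to 151 for these pairs. The first principal component held 30.1% of the variance and the second 16.1%. Scores on the first were 46.8, 27.4, -13.5 and 7.46 at CT8 and 6.45, 7.71, -22.3 and -60.1 at CT16, and a two-sided exact permutation test between the times gave p = 0.171 (0.514 adjusted over 3 components, n = 4 and 4; the smallest p this design allows is 0.0286). The second component set library 10 (-47.0) apart from libraries 9, 16 and 12 (23.1, 21.9 and 21.6), with an exact permutation p of 0.914. Libraries 9 and 14 had 22435994 and 24048412 reads, and the part of depth in the scores was not tested.

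**Figure D4:**
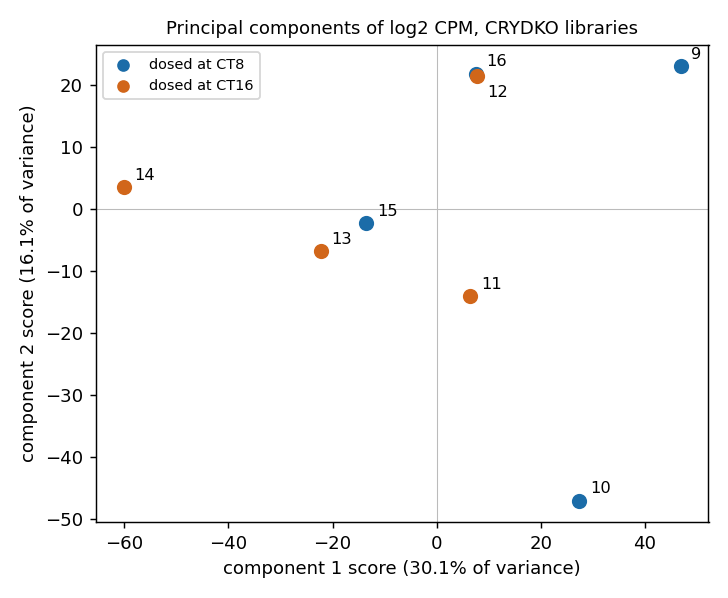
Scores of the 8 CRYDKO libraries on principal components 1 (x axis) and 2 (y axis) of log2 CPM, numbered by library and coloured by dosing time. Libraries 9 (46.8) and 14 (-60.1) lie at the ends of component 1, library 10 (-47.0) at the foot of component 2, and the colours are mixed in between.

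All 8 libraries were from males, but of the 20 genes with the largest spread within a time, 7 were on the list of male-biased and 5 on that of female-biased liver genes. Of the 14484 genes tested, 24 were on the male-biased and 22 on the female-biased list. Both lists were drawn up with this variation known, so these counts are not an independent result. Cyp2b13, a cytochrome P450 known from female liver, had the largest within-time SD named here, 4.99 on the log2 scale. It stood at 130, 0.270, 0.166 and 184 CPM at CT8 and at 74.7, 354.5, 0.400 and 0.666 CPM at CT16. Libraries 9, 16, 11 and 12 were therefore at 74.7 CPM or more and the other 4 under 1, with 2 of each kind at each time, and in WT the highest value was 0.0697 CPM. The female-biased genes A1bg and Slc22a26 gave a similar order, but Cyp2c69 and Cyp2c40, also on that list, did not. Cyp2c69 had 33.5, 55.7, 81.4 and 31.1 CPM at CT8 and 174, 296, 32.5 and 97.9 at CT16. Cyp2c40 had 28.1, 41.7, 36.8 and 25.8 CPM and then 63.3, 110, 42.0 and 40.2. In both, libraries 9 and 16 lay below libraries 10, 15 and 14. A1bg, a plasma protein gene, had 22.2, 1.39, 0.332 and 1.98 CPM at CT8 and then 8.41, 40.4, 0.571 and 1.28. Slc22a26, an organic anion transporter, had 88.4, 41.4, 10.1 and 47.6 CPM and then 136, 152, 5.08 and 24.2. In A1bg and Slc22a26, library 16 lay close to library 10. The within-time SD was 2.54 for A1bg and 1.88 for Slc22a26, and 0.67 and 0.52 in WT.

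Sex-dependent liver genes are known to respond to growth hormone through STAT5, which binds the sequence TTCNNNGAA. The upstream windows of A1bg (chr15:60921271-60921520) and Slc22a26 (chr19:7802668-7802917, both minus strand, RefSeq, GRCm38.p6) are shown because these female-biased genes varied together and hold this motif, in capitals, at -84 and -141 from the start.
A1bg: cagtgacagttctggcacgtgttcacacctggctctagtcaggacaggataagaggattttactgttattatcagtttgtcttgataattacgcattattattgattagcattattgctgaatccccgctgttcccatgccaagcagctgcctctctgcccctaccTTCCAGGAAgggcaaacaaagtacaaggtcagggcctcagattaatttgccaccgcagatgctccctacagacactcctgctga
Slc22a26: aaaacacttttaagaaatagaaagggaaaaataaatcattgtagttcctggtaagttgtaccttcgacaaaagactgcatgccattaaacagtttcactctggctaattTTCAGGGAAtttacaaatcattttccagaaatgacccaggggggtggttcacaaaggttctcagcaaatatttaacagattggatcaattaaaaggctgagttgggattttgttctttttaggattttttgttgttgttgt
Read on both strands, the motif lies in the windows of 5 of 18 female-biased and 2 of 17 male-biased genes of the lists with a window. Counted by gene, 7.36% of the genes tested that have a window held the motif in any of theirs. It lies in 7.02% of all 32851 windows. It does not show that STAT5 was bound in these livers.

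Several male-biased genes were ordered the other way. Serpina1e, an alpha-1-antitrypsin gene of the male liver, had 231, 4247, 3292 and 284 CPM at CT8 and 553, 426, 5293 and 2875 at CT16. Libraries 10, 15, 13 and 14 thus all exceeded the other 4. Mup20, a male pheromone, had 327, 3062, 2153 and 672 CPM at CT8 and 652, 430, 6537 and 4146 at CT16, and C6, a complement component, had 8.11, 51.7, 110 and 14.7 and then 25.2, 13.8, 210 and 125. Cyp4a12a, which makes a vasoactive fatty acid derivative, had 2.40, 18.6, 73.3 and 15.4 CPM and then 6.76, 3.27, 74.5 and 11.5, where library 14 lay below library 16. Scara5, a scavenger receptor for ferritin, was at 51.3, 55.7 and 86.0 CPM in libraries 15, 13 and 14 and at 1.39 to 6.995 in the other 5. For Serpina1e the log2 difference between the times was 0.18 ± 0.97 (SE), and for Cyp2b13 0.46 ± 1.92. The median of the male-biased list per library was -1.52, -0.104, 0.748 and -0.547 at CT8 and -0.541, -0.600, 1.38 and 0.893 at CT16, and that of the female-biased list 0.768, -0.190, -0.551 and 0.209 and then 0.717, 1.13, -1.69 and -0.415. Both lists were known to vary in these libraries when they were drawn up.

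**Figure D5:**
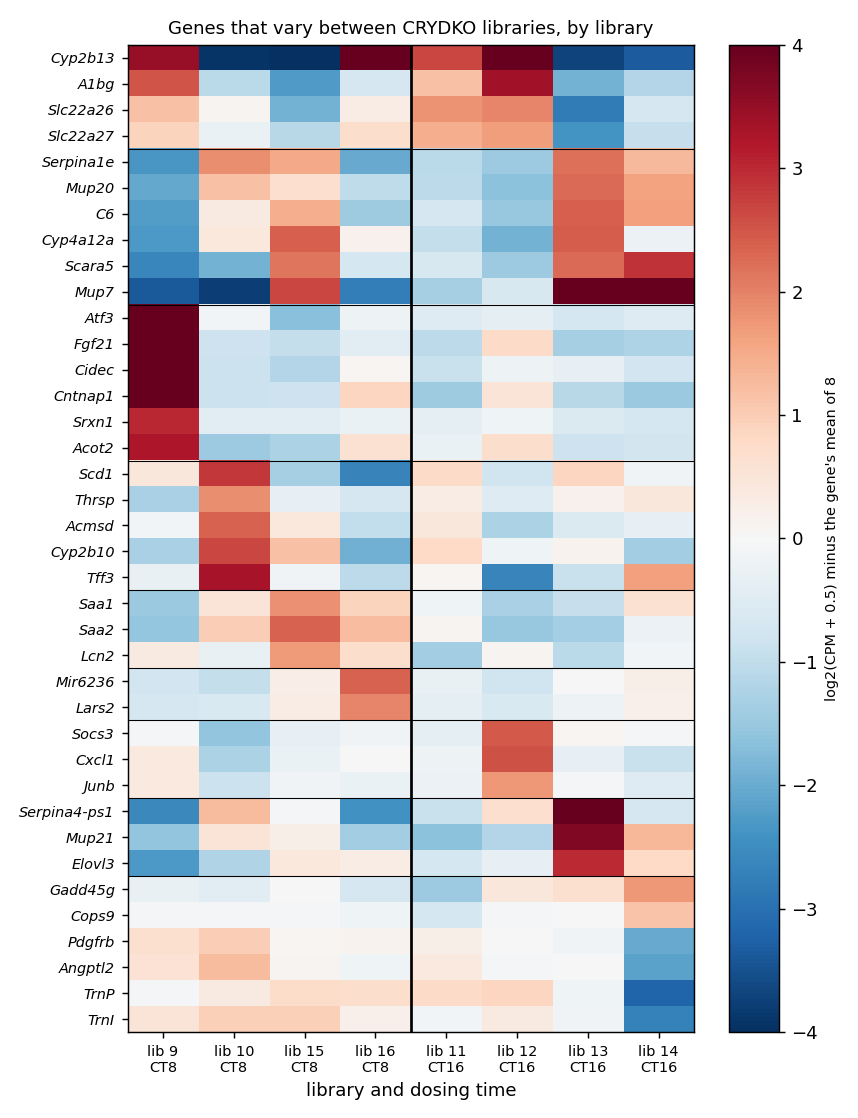
Rows are genes that vary between the libraries, columns the 8 CRYDKO libraries (4 dosed at CT8 left of the thick line, 4 at CT16 right of it), and the colour is log2(CPM + 0.5) minus the gene's mean over the 8 (the colour saturates at 4). The top block of female-biased genes is high in libraries 9, 11 and 12 and mostly in 16, the next block of male-biased genes mostly in 10, 15, 13 and 14, and the other blocks are genes in which 1 library lies apart, such as Atf3 in library 9 (49.2 CPM).

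Among the 10708 genes averaging 1 or more on the log2 CPM scale, library 9, dosed at CT8, lay at least 2-fold above all other 7 in 52 and below them in 25. The counts for the other libraries are over the same genes. Atf3, a stress-induced transcription factor, had 49.2 CPM there and 0.387 to 2.11 in the other 7. Fgf21, a hormone that the liver releases in fasting and stress, had 75.2 CPM in library 9, 3.32 in library 12 and 0.400 to 1.19 in the other 6. Cidec, a protein of lipid droplets, was at 64.2 CPM against 1.16 to 3.47, Cntnap1 at 72.1 against 0.768 to 5.90, and Acot2, a mitochondrial thioesterase, at 85.5 against 2.83 to 14.2. Ehhadh, an enzyme of peroxisomal fatty acid oxidation and a target of PPAR alpha, had 748 CPM against 126 to 267. In the same library genes of cholesterol synthesis were low, with a list median of -1.09 relative to each gene's mean. Cyp1a2, a pericentral drug-metabolising enzyme, had 59.6 CPM against 139 to 295. Hlf and Usp2, both clock outputs, were also lowest in library 9 among the CT8 libraries, at 31.3 and 53.5 CPM. The log2 difference of Atf3 between the times, -3.18 ± 1.14 (SE), and that of Fgf21, -3.97 ± 1.44, rested on this library. Without it they were -0.0258 and 0.47. Likewise, the difference of Cidec was -3.05 with library 9 and 0.038 without it, that of Cntnap1 -3.43 and -0.66, that of Acot2 -1.76 and 0.25, and that of Ehhadh -1.13 and -0.39.

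Atf3 and Fgf21 are known targets of ATF4, the factor of the integrated stress response, which binds composite C/EBP-ATF elements. Their upstream windows (RefSeq, GRCm38.p6, chr1:191183334-191183583 and chr7:45615491-45615740, both minus strand) are shown because these genes set library 9 apart and both hold TTGCATCA, in capitals, at -110 and -139 from the start.
Atf3: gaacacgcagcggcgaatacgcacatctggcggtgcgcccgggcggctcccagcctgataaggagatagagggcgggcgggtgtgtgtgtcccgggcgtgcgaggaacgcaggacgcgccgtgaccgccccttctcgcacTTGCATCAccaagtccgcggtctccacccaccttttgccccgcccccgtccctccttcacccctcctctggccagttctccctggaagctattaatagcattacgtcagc
Fgf21: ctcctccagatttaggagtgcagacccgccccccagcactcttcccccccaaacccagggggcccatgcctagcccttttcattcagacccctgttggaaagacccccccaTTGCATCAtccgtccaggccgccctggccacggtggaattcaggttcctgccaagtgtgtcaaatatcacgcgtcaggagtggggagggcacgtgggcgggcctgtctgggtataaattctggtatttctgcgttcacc
This sequence, read on both strands, occurs in 0.791% of all 32851 windows. In the genes tested the share was 0.709%. Of the 52 genes counted above for library 9, 45 had a window and 1, Atf3, held it, which is 2.22%. Fgf21 is not among the 52, since its mean over the 8 libraries lay under the level of 1 on the log2 CPM scale. The list of 28 unfolded protein and integrated stress response genes did not stand apart in library 9. Its median relative to each gene's mean was 0.0353 there, and ran from -0.307 in library 11 to 0.190 in library 12. Whether ATF4 was active in library 9 was not tested.

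Library 10, also dosed at CT8, lay at least 2-fold above the other 7 in 26 genes and below them in 38. Scd1, the stearoyl-CoA desaturase of fat synthesis, had 6260 CPM there, 1612 in library 13, 1501 in library 11 and 137 to 1206 in the other 5, with the lowest value in library 16. Thrsp, which promotes fat synthesis, had 706 CPM against 78.4 to 263, and Pnpla3, a lipase of lipid droplets, 14.02 against 0.615 to 7.29. Cyp2b10, the classical target of the xenobiotic receptor CAR, was at 47.8 CPM in library 10 and at 1.49 to 16.5 in the other 7. Acmsd, an enzyme of tryptophan breakdown, had 43.3 CPM against 3.01 to 11.2, and Tff3, a secreted trefoil peptide, 76.8 against 0.752 to 23.8. The cell cycle gene Ccnd1 was high in libraries 9 and 10, at 86.9 and 39.0 CPM, and in library 12, at 28.8, against 5.38 to 12.8 in the other 5.

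The remaining libraries differed in fewer genes, except library 14. Library 15 lay apart at least 2-fold in 2 genes upwards and 9 downwards, and had the highest acute phase levels. Saa2, a serum amyloid gene, had 493, 2910, 7531 and 3416 CPM at CT8 and 1557, 506, 562 and 1237 at CT16, and Lcn2, an iron-siderophore binding protein induced by inflammation, 802, 512, 2065 and 1012 and then 240, 675, 296 and 587. Saa2 had an adjusted p of 0.671 and Lcn2 of 0.672 by edgeR, with overlap in each. In library 16, Mir6236 had 232 CPM against 22.7 to 54.0 and Lars2 663 against 108 to 213. Reads at these 2 loci can come from ribosomal RNA, since their annotated sequence resembles it, but their origin here was not tested. In library 12, dosed at CT16, Socs3, a feedback inhibitor of cytokine signalling, had 205 CPM against 12.3 to 39.2, the chemokine gene Cxcl1 227 against 15.6 to 49.6 and the early response gene Junb 274 against 45.3 to 109.

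Library 13 carried the highest levels of several male-biased genes, with Serpina4-ps1 at 157 CPM against 0.523 to 14.1, Mup21 at 109 against 2.18 to 20.6 and Elovl3, a fatty acid elongase, at 24.1 against 0.131 to 4.92. Slc16a5, a monocarboxylate transporter, was low there, at 12.2 CPM against 39.1 to 97.2. Library 14 lay at least 2-fold below the other 7 in 147 genes and above them in 9. Beside Pdgfrb, these included Angptl2, a secreted angiopoietin-like protein (0.512 CPM against 3.42 to 10.2), Gpr182, a receptor of sinusoidal endothelium (0.973 against 4.31 to 9.97), and the mitochondrial transfer RNA genes TrnP (2.56 against 24.7 to 50.3) and TrnI (0.666 against 6.34 to 14.2). Cops9, a subunit of the COP9 signalosome, was at 82.3 CPM against 22.5 to 36.6, and the stress gene Gadd45g at 189 against 19.99 to 86.7. Genes detected numbered 17452 in library 14 and 17640 to 18803 in the other 7. In library 14 the tenth of genes with the shortest transcripts had a median of 0.0933 and the tenth with the longest -0.103 relative to each gene's mean. These medians were 0.115 and -0.145 in library 12, the widest of that sign, and -0.149 and 0.151 in library 11. Library 11 lay apart at least 2-fold in 0 genes upwards and 1 downwards, with Lrit1 (6.05 CPM against 1.79 to 3.67) and Gse1 (46.3 against 18.8 to 29.0) furthest above the others. The part of transcript length in these differences was not tested.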

How the data were processed

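Per the labels' protocols, liver poly(A) RNA was read from both ends by Illumina sequencing. Per the submitters' processing notes, Trimmomatic 0.35, STAR 2.5.3, HTSeq 1.99.2 and DESeq2 were used with the mouse build GRCm39; these sources name neither the annotation nor the strand setting. The deposited counts are whole reads per gene symbol, not normalized. The deposited normalized signal is, from the values, each count divided by 1 size factor by the authors, and there the names of all 4 CRYDKO CT8 columns are permuted among themselves relative to the counts; library numbers in the text are those of the count table. It served only as an alternative, on log2 with a pseudocount of 1 or 10. Groups came from the column names, and 0 columns lacked a group.

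Counts were fitted with edgeR 4.0.16 in R 4.3.3 (filterByExpr, TMM factors, robust quasi-likelihood test, 1 coefficient per group over all 16 libraries), with limma 3.58.1 and DESeq2 1.42.0 as alternatives, and p-values were adjusted by Benjamini-Hochberg over all genes tested. SE is the log2 difference divided by the square root of F. CPM uses TMM-scaled library sizes, and log2 CPM a prior count of 2. Scripts were tested on simulated data.

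Named genes were the clock list, the 10 lowest p in each direction averaging 1 or more on the log2 CPM scale, genes called by an alternative, the lowest p of each list, the most variable genes, those leading the components and those in which 1 library lay apart. The genes called for the interaction, and Nfkbia, Cdkn1a, Gclc, Baat, Mup20, Cyp1a2, Thrsp, Pnpla3, Junb and Gpr182, lie outside this rule and were chosen after their values were seen. Members and lists were chosen with earlier results of these data known. Promoter windows are the 250 bases before RefSeq starts in GRCm38.p6, matched by symbol. Each window shown is the first of its gene that held the motif. Alternatives covered the test, scaling, filter, libraries used and each CRYDKO library left out. A few genes that the rule takes in are not reported here.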

Additional observations from a re-analysis of the deposited data

Results flagged for a closer look

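In each group of 4, the gap of the highest or lowest library to its neighbour, as a share of the group's range of log2 CPM, was set against Dixon's 95% critical value for 4 samples. Of 230 groups examined (115 named genes at 2 times), 18 exceeded it. Chance gives about 1 in 20, and many of these genes were named because 1 library lay apart. At CT8, library 9 stood apart downwards for Hlf (0.879) and Usp2 (0.877) and upwards for Gsr (0.967), Srxn1 (0.944) and Fgf21 (0.885), and library 10 downwards for Prtn3 (0.841). At CT16, library 14 stood apart upwards for Tnfaip3 (0.905) and Slc27a5 (0.908) and downwards for TrnI (0.857), Pdgfrb (0.853) and Angptl2 (0.839). Library 12 stood apart upwards for Fgf21 (0.832) and Socs3 (0.846) and downwards for Nr1d2 (0.922) and Tat (0.851), and library 11 upwards for Hlf (0.895) and Gse1 (0.950) and downwards for Nr1h4 (0.861).

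The difference between the times differed between genotypes by the edgeR interaction test for 6 genes. On the log2 scale, CRYDKO minus WT, it was 2.05 for Cyp2j9, 2.98 for Sult5a1, 3.38 for Gm43549, 3.38 for LOC118568335, -1.72 for Ppib and -2.09 for Tnfaip3. The values kept their sign in all 8 fits that left out 1 CRYDKO library, from 2.84 to 3.06 for Sult5a1 and from -1.88 to -1.52 for Ppib.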

How the results depend on the processing

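The count of 0 genes called between the times became 14 with DESeq2, 1 with limma on the deposited values at a pseudocount of 1 and 2 with no low count filter, and ran from 0 to 3 with 1 CRYDKO library left out. The interaction count of 6 became 134 with DESeq2 and ran from 0 to 9 with 1 library left out. With libraries 9 and 14 both left out, chosen after seeing the data, these counts were 0 and 4. The cause was not tested. The share of variance on component 1 was 37.9% with the 500 most variable genes, 26.3% with unit variance and 33.2% with library size alone (27.1% to 34.3% with 1 library left out), that on component 2 was 19.7% and 19.2% under the first 2 of these (17.3% to 20.8%), and that between the times ran from 15.1% to 21.1% with 1 library left out. Clock genes close to 0 changed sign, none past the threshold. Nr1d2 became 0.00496 with DESeq2 and 0.00498 with its size factors, 0.00728 with voom, 0.0139 and 0.0138 with the deposited values at pseudocounts 1 and 10, and 0.000590 with no filter. Arntl became 0.0124 with voom and 0.00155 with the deposited values at pseudocount 1, Wee1 -0.0413 with library size alone, and Hlf -0.0463 without libraries 9 and 14. With 1 library left out the log2 difference ran from -0.26 to 0.22 for Arntl, from -0.0706 to 0.14 for Clock, from -0.0858 to 0.40 for Per3, from -0.11 to 0.0663 for Cry2, from -0.15 to 0.29 for Nr1d1, from -0.12 to 0.12 for Nr1d2, from -0.0851 to 0.20 for Hlf, from -0.0432 to 0.38 for Nfil3, from -0.0645 to 0.24 for Bhlhe40, from -0.12 to 0.0938 for Usp2 and from -0.0974 to 0.18 for Wee1. No paired analysis was possible because the columns carry running numbers and not the labels' replicate numbers. The number of libraries, 4 per group, limits the precision (median SE 0.206).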
